A study of Lemna gibba and Lemna japonica and Spirodela polyrhiza with 12 samples.

Results

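MicroRNA hairpins are the folded precursors from which plants cut their microRNAs. The hairpins described here are all loci that the ShortStack annotation of 4 duckweeds lists as microRNA hairpins, joined to the mature strand and the star strand that carry the same parent name. They number 425 of 79572 small RNA loci. Lg7742a has 83, Lj8627 has 144, Sp9509 has 81 and Wa8730 has 117, and each of the 425 has exactly 1 mature and 1 star strand on its own strand of the genome.

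Duckweeds are small floating plants of the family Lemnaceae. Whole fronds were taken from Lg7742a (Lemna gibba), Lj8627 (Lemna japonica, a hybrid whose assembly holds a chromosome set ending in M and a set ending in T), Sp9509 (Spirodela polyrhiza) and Wa8730 (Wolffia australiana), from sterile stock-centre cultures grown in sucrose medium under a day of 16 hours at 23°C. No treatment or mutant was included. RNA between 17 and 200 nt was enriched from 3 biological replicates per accession, 12 libraries in all. The deposited lists give reads summed over the 3 replicates, so variation among replicates is hidden, and accessions were not tested against each other.

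In plants, a Dicer-like enzyme cuts the stem of a hairpin and releases a short duplex of both arms. An Argonaute protein keeps the strand called mature, which guides the cleavage or repression of matching transcripts, while the star strand of the opposite arm is mostly lost. Most plant microRNAs are 21 nt long. Those of 22 nt are known for setting off secondary small interfering RNAs from their targets. The arm that carries the mature strand (5p or 3p) is usually conserved within a microRNA family.

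Hairpin callers commonly weigh how reads pile up on a strand, how precisely they fall on the duplex and how the sequence folds. The settings of the caller are not stated in the labels or files, but these features may have entered the choice of loci. Strandedness, mature and star shares and reads in neither product are therefore given as descriptions of what was listed. Arm, spacing of the products and distance between hairpins are not known to have entered the choice. Intervals are 95% Wilson intervals, carried over to ratios from the mature share of both products. They cover counting error only, since pooled reads need not be independent molecules and hairpins were not drawn at random. Hairpins of different accessions or chromosome sets are set side by side below where their layout is alike. That choice was made by eye from arm, product lengths and spacing, their sequences were not compared, and whether they descend from the same locus is not known here. Sequences and microRNA family names were not used here, so hairpins are named by position in the authors' assemblies (asm202106v1 for Lg7742a, Lj8627 and Wa8730, asm3v1 for Sp9509), and no gene, exon or intron is assigned to them.

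Depth was unequal. Hairpins held 3964597 reads (Lg7742a), 4260332 (Lj8627), 5000458 (Sp9509) and 4293269 (Wa8730). The smallest hairpin listed had 6 reads (Lg7742a), 4 (Lj8627), 16 (Sp9509) and 6 (Wa8730). At least 100 reads were present in 61, 114, 70 and 58 hairpins of Lg7742a, Lj8627, Sp9509 and Wa8730. In Wa8730 the other 59 hairpins, 50.4% of its list (41.5 to 59.3), had fewer than 100 reads even when pooled.

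Reads were concentrated in few hairpins. In Lg7742a a single hairpin held more than 50% of all hairpin reads and 11 held 90%. Reaching 90% took 25 hairpins in Lj8627, whose list covers both the M and the T chromosome set, 23 in Sp9509 and 9 in Wa8730. The 5 hairpins with most reads held 83.2% (Lg7742a), 66.9% (Lj8627), 65.2% (Sp9509) and 85.7% (Wa8730).

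The first comparison asked which arm carries the mature strand. Counted by hairpin, the 5p arm was the more common in Lg7742a, Lj8627 and Sp9509, and the 3p arm in Wa8730. Lg7742a had 49 hairpins with a 5p and 34 with a 3p mature strand, so that 59.0% were 5p (48.3 to 69.0). Lj8627 had 78 and 66, or 54.2% 5p (46.0 to 62.1). Sp9509 had 48 and 33, or 59.3% 5p (48.4 to 69.3). Only Wa8730 leaned to the other arm among these 4 lists, with 40 hairpins 5p and 77 hairpins 3p, or 34.2% 5p (26.2 to 43.2).

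The lean of Wa8730 lay among its shallow hairpins. Of hairpins with at least 100 reads, 28 in Wa8730 were 5p and 30 were 3p, or 48.3% 5p (35.9 to 60.8), against 59.0% for Lg7742a, 55.3% for Lj8627 and 58.6% for Sp9509. Under 100 reads, 12 hairpins of Wa8730 were 5p and 47 were 3p, or 20.3% 5p (12.0 to 32.3). As described further on, 39 of the 3p hairpins of Wa8730 have the same layout, and all but 2 of these 39 had fewer than 100 reads. The shallow 3p hairpins and the shared layout are thus largely the same hairpins. Without the shared layout, 40 of 78 hairpins were 5p, or 51.3% (40.4 to 62.1).

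**Figure D1:**
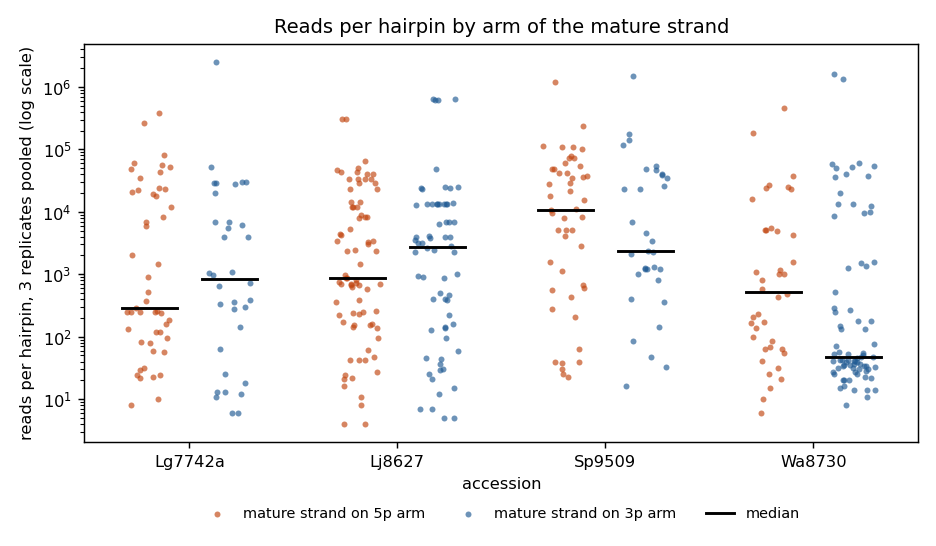
Reads per hairpin (log scale, 3 replicates pooled) in each accession. Each point is a hairpin, orange where the mature strand lies on the 5p arm and blue where it lies on the 3p arm, and black lines are medians. The 3p hairpins of Wa8730 form a dense band around their median of 47 reads, while the leading hairpins of Lg7742a, Lj8627, Sp9509 and Wa8730 are all 3p.

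Counted by reads, the arms balanced otherwise. Mature reads came from the 5p arm at 27.1% (Lg7742a), 29.5% (Lj8627), 57.1% (Sp9509) and 19.2% (Wa8730). The balance rested on the leading hairpin in Lg7742a. Without the leading hairpin of each list, the 5p arm held 82.4% of mature reads (Lg7742a), 35.0% (Lj8627), 83.9% (Sp9509) and 31.3% (Wa8730). Without the 5 leading hairpins of each list, the 5p arm held 61.1% (Lg7742a), 74.0% (Lj8627), 77.0% (Sp9509) and 28.9% (Wa8730). Wa8730 was thus the accession with the lowest 5p share of mature reads by each of these 3 counts.

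A 3p hairpin with long spacing between its products led every list. In Lg7742a it lay on the minus strand at chr7:587386-587598, with 2369845 mature and 29 star reads and 129 nt between the products. In Lj8627 the leading pair lay at chr7M:423952-424163, with 602031 mature and 22 star reads, and at chr7T:761196-761407, with 602550 and 14, both with 128 nt between the products. How reads that match both M and T were assigned is not stated in the labels or files. Counts on M and T, here and below, may therefore not be separate measurements. In Sp9509 the leader at chr5:6909384-6909592 had 1287405 mature and 45 star reads, with 125 nt between the products.

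The leader of Wa8730, at chr11:16930771-16930982, had 1531695 mature reads and 1 star read, again with 128 nt between the products. All of these leaders were 3p, 21 nt on both strands and on the minus strand of their assembly. Their ratio of mature to star reads was 81719 in Lg7742a (95% interval 56901 to 117362), 27365 on chr7M and 43039 on chr7T of Lj8627, and 28609 in Sp9509 (21382 to 38278). In Wa8730 the single star read leaves the ratio between 270382 and 8676955.

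A 3p hairpin of still wider spacing followed in Lj8627 and Wa8730. There were 598898 mature and 143 star reads at chr16M:10407369-10407621, 598874 and 251 at chr16T:13276137-13276393, and 1304301 and 242 at chr4:1138510-1138761 of Wa8730. Each paired a mature strand of 21 nt with a star strand of 22 nt, with 170, 174 and 167 nt between them. The hairpin on chr16T is also the longest of Lj8627, at 257 bp.

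A 5p hairpin with a 22 nt mature and a 21 nt star strand was among the 5 with most reads in all 4 accessions. There were 369015 mature and 335 star reads at chr5:23346760-23346886 of Lg7742a. Lj8627 had 295075 and 195 at chr5M:16875103-16875233, and 294717 and 187 at chr5T:19404389-19404514. The values were 1138128 and 844 at chr3:7343199-7343321 of Sp9509, and 445044 and 548 at chr3:19786737-19786862 of Wa8730. These 5 hairpins had 40 to 46 nt between the products and left 3.76% to 5.23% of their reads in neither. The mature to star ratio was 1102 in Lg7742a, 1513 and 1576 on chr5M and chr5T of Lj8627, 1348 in Sp9509 and 812 in Wa8730.

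Hairpins of 22 nt other than the 5 above held a small part of the 22 nt mature reads. Some of them had more reads on the strand listed as star, as described further on. Mature strands of 22 nt numbered 7 (Lg7742a), 13 (Lj8627), 5 (Sp9509) and 9 (Wa8730). The leading hairpin alone held 93.3% of the 22 nt mature reads in Lg7742a, 99.9% in Sp9509 and 98.2% in Wa8730, and that on chr5M held 49.8% in Lj8627. The hairpin on chr5T held most of the rest in Lj8627, with 294717 of 592695 reads. Second in Lg7742a was a 5p hairpin at chr16:12474976-12475097 with 25678 mature and 256 star reads.

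The class of 21 nt made up 91.6% of mature strands for Lg7742a (83.6 to 95.9), 88.2% for Lj8627 (81.9 to 92.5), 91.4% for Sp9509 (83.2 to 95.8) and 91.5% for Wa8730 (85.0 to 95.3). By hairpin the 4 shares had overlapping intervals. Weighted by mature reads they were 88.8% (Lg7742a), 84.4% (Lj8627), 71.8% (Sp9509) and 88.5% (Wa8730). Sp9509 was the lowest by this weighting, and 28.2% of its mature reads were of 22 nt.

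Mature strands of 20 nt were listed in none of the hairpins of Lg7742a, 4 of Lj8627, 2 of Sp9509 and 1 of Wa8730. Those with most reads fell into clean and blurred hairpins. On scaffold3 of Lj8627, from 229612 to 229808, a 5p mature strand had 3160 of 3427 reads. On chr14 of Wa8730, from 3627543 to 3627753, a 5p mature strand had 4948 of 5613 reads.

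The other 20 nt strands with most reads, in Lj8627 and Sp9509, held little of their hairpin. At chr12T:14866462-14866590 of Lj8627 the mature strand had 998 of 33354 reads. In Sp9509 it had 26 of 1331 reads at chr9:640541-640672 and 6 of 1217 reads at chr2:1598650-1598778. These 3 loci carry a size call of 21 nt, which is not the length of the strand listed as mature.

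Mature and star strands had the same length in 380 of the 425 hairpins. Star strands ran from 20 to 23 nt, and 23 nt was reached once in Lj8627 and once in Wa8730. The listed ends of a hairpin follow a fixed rule: 20 nt lie outside the products on each side, and 22 nt on the side of the mature strand when that strand has the lower coordinates. This held for all 114 plus strand 5p, 101 minus strand 5p, 106 plus strand 3p and 104 minus strand 3p hairpins. Listed length therefore carries only the product lengths and the bases between them, and a hairpin can be 2 bp longer by its strand alone.

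The second comparison took that spacing. Listed hairpins ran from 99 to 259 bp, with a median of 127 bp for Lg7742a, 127.5 bp for Lj8627, 132 bp for Sp9509 and 120 bp for Wa8730. The bases between mature and star strand had medians of 43, 43.5, 49 and 37 nt in the same accessions, from 17 nt to 175 nt over all 425. Lengths were spread unevenly: 294 hairpins were under 140 bp, 60 from 140 up to 180 bp, and 71 were at least 180 bp.

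Long hairpins, of at least 180 bp, were a minority by number and a majority by reads in Lg7742a, Lj8627 and Wa8730. They made up 15.7% of hairpins and 67.7% of hairpin reads for Lg7742a, 18.8% and 67.4% for Lj8627, 25.9% and 45.8% for Sp9509, and 8.55% and 72.1% for Wa8730. The share of reads rested on the leading hairpins. Without the hairpin of most reads, long hairpins held 11.8% (Lg7742a), 61.7% (Lj8627), 22.4% (Sp9509) and 55.3% (Wa8730) of the remaining reads, and without the first 5 they held 25.9%, 23.6%, 34.7% and 20.5%. By arm, 5p hairpins were long in 14.3% of cases (Lg7742a), 11.5% (Lj8627), 20.8% (Sp9509) and 5.0% (Wa8730). Among 3p hairpins these shares were 17.6%, 27.3%, 33.3% and 10.4%. The 3p share was the higher in each accession, but the intervals of the arms overlapped in each, as in Lj8627 with 6.19 to 20.5 for 5p and 18.0 to 39.0 for 3p.

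**Figure D2:**
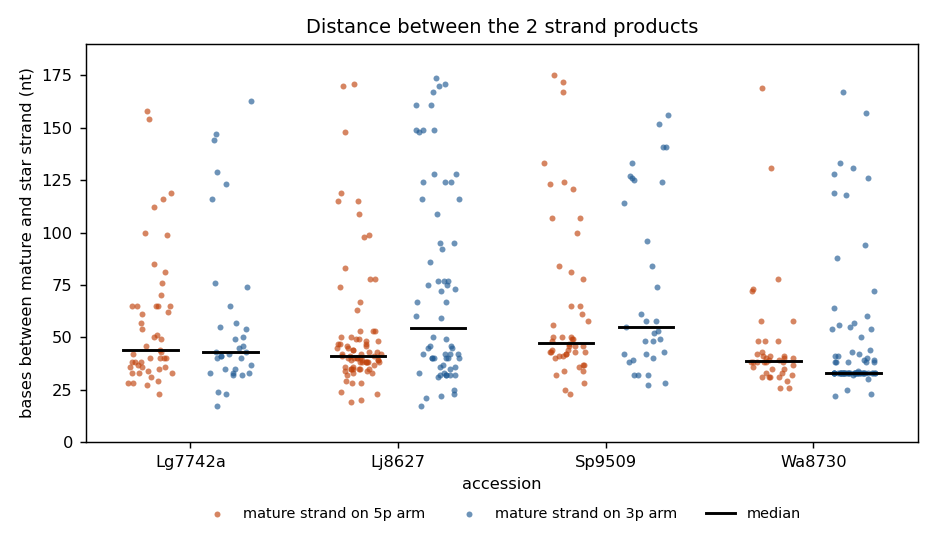
Bases between the mature and the star strand in each accession, by arm of the mature strand (orange 5p, blue 3p). Each point is a hairpin and black lines are medians. Most hairpins gather near the medians of 37 to 49 nt of the 4 accessions, a thinner group reaches up to 175 nt, and the 3p hairpins of Wa8730 stack up at their median of 33 nt.

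The extremes of length differed in depth. In Sp9509 the longest, at chr3:7124999-7125257 with 259 bp, had 36145 mature and 117 star reads, and the shortest, at chr5:618587-618691 with 105 bp, had 19433 and 26. In Lg7742a the longest, of 245 bp at chr21:816783-817027, had 11 mature and 309 star reads, and the shortest, of 99 bp at chr2:9808527-9808625, had 7 and 1. The shortest of Lj8627, of 101 bp at chr6M:3124398-3124498, had 30 and 2. In Wa8730 the longest, at chr19:8653346-8653598, had 151 and 6, and the shortest, at chr1:8371677-8371782, had 410 and 1. The ends of the length range are thus well covered in Sp9509 and sparse in Lg7742a.

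The third comparison set mature against star reads. Summed over hairpins there were 59.2 mature reads per star read (Lg7742a), 41.7 (Lj8627), 16.5 (Sp9509) and 57.3 (Wa8730). These sums rest on few hairpins. The median hairpin had a lower ratio: with 1 read added to both, the median was 11.8 (Lg7742a), 20.7 (Lj8627), 11.6 (Sp9509) and 5.33 (Wa8730), and Sp9509 was no longer the lowest. A star strand with a single read occurred in 7, 22, 5 and 23 hairpins of Lg7742a, Lj8627, Sp9509 and Wa8730.

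The ratio went with depth, least in Sp9509. Among hairpins under 100 reads its median was 2.80 (Lg7742a), 3.25 (Lj8627), 3.36 (Sp9509) and 4.00 (Wa8730). At 10000 reads or more it was 79.3, 320, 14.1 and 125 in the same accessions. The medians did not rise in order in Lj8627, with 31.8 from 100 up to 1000 reads and 21.9 from 1000 up to 10000. In Sp9509 these medians were 12.5 and 16.7, the latter above its median at 10000 reads or more. Over the hairpins of an accession, Spearman's rho between reads and the ratio was 0.61 for Lg7742a (n = 83), 0.58 for Lj8627 (n = 144), 0.32 for Sp9509 (n = 81) and 0.57 for Wa8730 (n = 117). These hairpins share libraries and depth, and the ratio of a shallow hairpin is bounded by its own reads, so rho is a description.

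In 28 of the 425 hairpins the strand listed as star had more reads than the strand listed as mature: 7 (Lg7742a), 7 (Lj8627), 9 (Sp9509) and 5 (Wa8730). They had 13 mature strands on the 5p arm and 15 on the 3p arm. Although few, they held much of the star signal: 8.87% of all star reads (Lg7742a), 48.6% (Lj8627), 62.4% (Sp9509) and 58.2% (Wa8730). With the product of more reads taken as mature in every hairpin, the summed ratio was 64.3 (Lg7742a), 77.7 (Lj8627), 31.2 (Sp9509) and 113 (Wa8730).

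**Figure D3:**
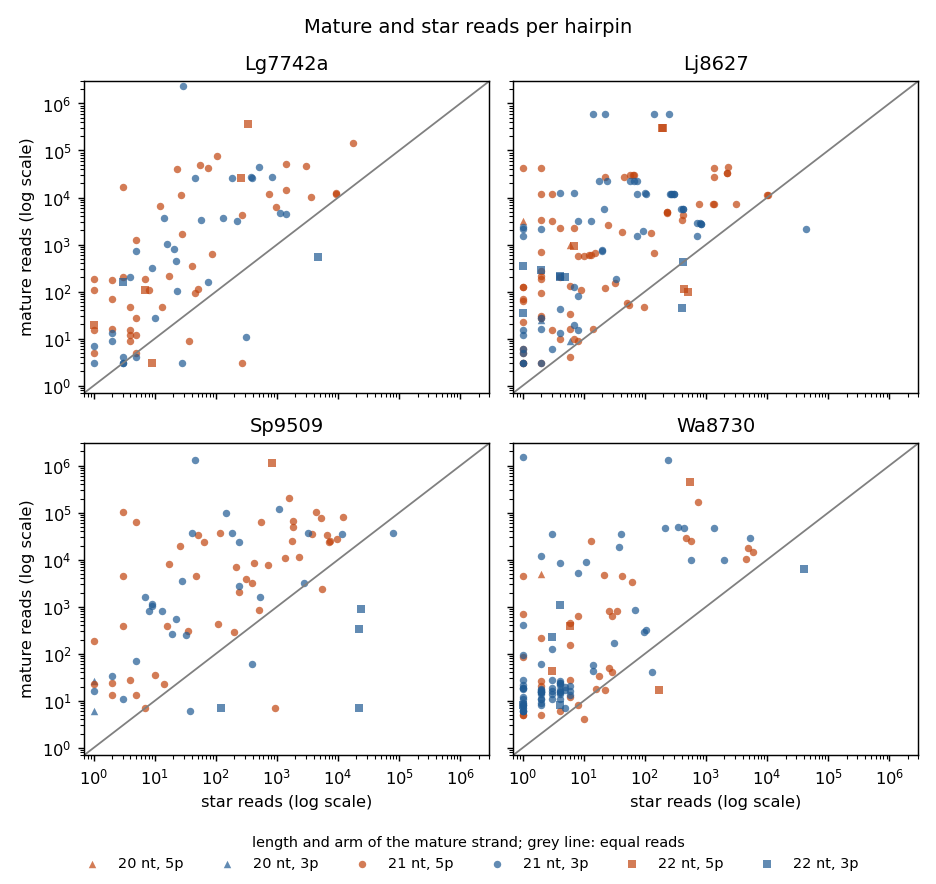
Mature reads against star reads per hairpin (both log scales, 3 replicates pooled), with a panel per accession. Colour gives the arm of the mature strand, shape its length, and the grey line marks equal reads. The 28 hairpins under the line have more star than mature reads, among them squares that stand for 22 nt mature strands.

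A layout with a 22 nt mature and a 20 nt star strand recurred in this set. It was listed in 10 hairpins, 8 of them with the mature strand on the 3p arm, and the star strand had more reads in 9. No size call was given to 9 of the 10 loci. In Lg7742a it occurred at chr10:23419826-23419951, with 541 mature and 4640 star reads. Wa8730 had it at chr10:2614582-2614705, with 6446 mature and 39984 star reads, the fifth hairpin of that list by reads.

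Sp9509 had 4 hairpins of this kind, and in 3 of them the star strand held most reads. At chr11:6090339-6090463 there were 878 mature and 23671 star reads, and at chr11:6093433-6093556, 2969 bp further on, 7 mature and 22179 star reads. At chr19:598217-598359 the values were 338 and 21841, with 3.02% of reads in neither product. The locus is therefore precise, but its abundant strand is the 20 nt strand of the 5p arm, listed as star. The mature to star ratio of 0.000316 on chr11 (95% interval 0.000153 to 0.000652) was the lowest of the whole set.

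Lj8627 had 4 such hairpins of modest depth. On chr10M, from 14862950 to 14863075, mature and star were nearly level, with 430 and 422 reads, while on chr10T, from 18743428 to 18743551, they were 44 and 401. The others, on chr17M and chr20T, had 100 against 502 and 115 against 434 reads. The hairpins on chr10 of Lg7742a, chr10M and chr10T of Lj8627, chr10 of Wa8730 and the downstream hairpin on chr11 of Sp9509 all had 42 nt between the products.

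The naming of the strands also differed between hairpins of like spacing on chr3M and chr3T of the hybrid. At chr3M:14940591-14940781 the 5p strand was listed as mature, with 45007 reads against 2301 star reads on the 3p arm. At chr3T:17177154-17177346 the 3p strand was listed as mature, with 2179 reads, and the 5p strand as star, with 43074. Both hairpins lie on the minus strand with 109 nt between the products, and in both the 5p arm had most reads, listed as mature on chr3M and as star on chr3T. The chr3T hairpin alone held 47.0% of the star reads of Lj8627. The summed mature to star ratio was 70.8 on M and 28.9 on T chromosomes, and 113 and 87.6 without the hairpin of most star reads on each.

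Hairpins with 21 nt products were also among those with more star reads. The fifth hairpin of Sp9509, at chr12:5677214-5677335, had 37094 mature and 78295 star reads. At chr19:2418307-2418431 of Sp9509 there were 7 and 928, and at chr12:10513858-10514097 of Lg7742a 3 and 266. In Wa8730 a hairpin at chr8:13133783-13133945, the only locus of the set with a size call of 23 nt, had 17 mature and 168 star reads on strands of 22 and 23 nt.

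The fourth comparison took the reads that lie in neither product. Over all hairpin reads they made up 9.41% (Lg7742a), 8.13% (Lj8627), 14.3% (Sp9509) and 5.90% (Wa8730). The median hairpin was less tidy, with 21.1% (Lg7742a), 15.5% (Lj8627), 15.6% (Sp9509) and 36.7% (Wa8730). Wa8730 thus had the lowest share over all reads and the highest for its median hairpin.

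Depth went with this measure too, least in Sp9509. Among hairpins with at least 10000 reads the median share was 9.22% (Lg7742a), 8.44% (Lj8627), 14.6% (Sp9509) and 9.15% (Wa8730). Under 100 reads it was 33.9%, 28.3%, 18.4% and 47.9% in the same accessions. In Sp9509 the medians did not fall in order, with 29.9% from 100 up to 1000 reads and 14.7% from 1000 up to 10000. Spearman's rho between reads and this share was -0.42 (Lg7742a), -0.41 (Lj8627), -0.24 (Sp9509) and -0.46 (Wa8730), over the same hairpins as above. Among deep hairpins Sp9509 stood highest, and its leader on chr5 left 14.6% of reads in neither product, against 5.61% in Lg7742a, 6.07% and 6.02% in Lj8627 and 5.05% in Wa8730 for the leaders of like layout.

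**Figure D4:**
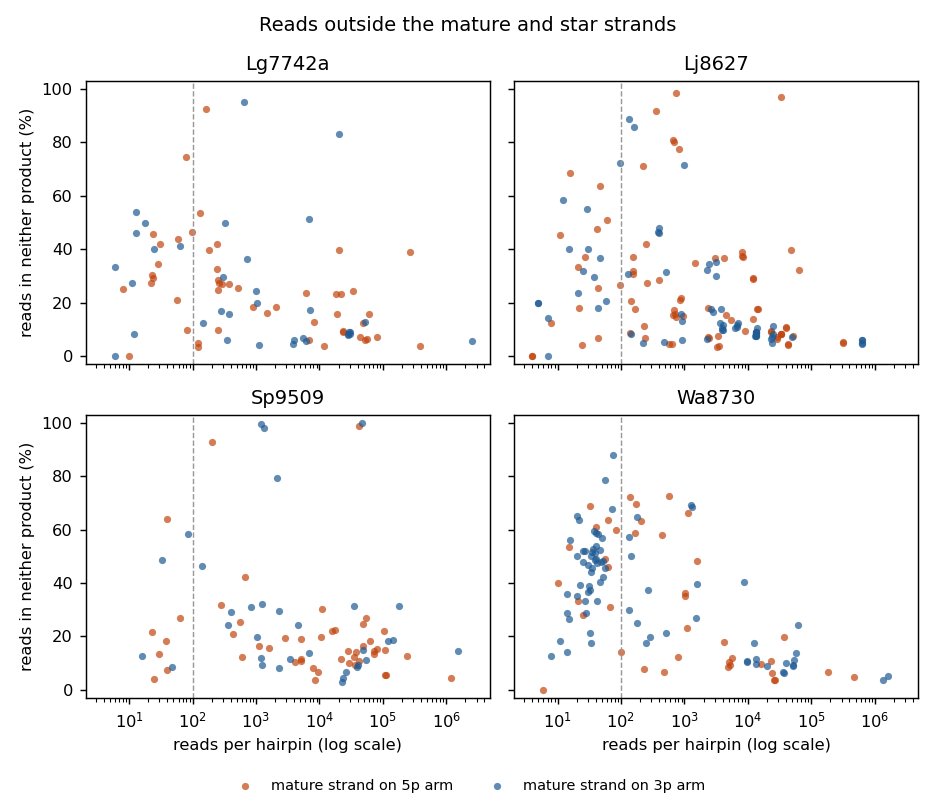
Share of a hairpin's reads in neither the mature nor the star strand, against reads per hairpin (log scale), with a panel per accession and colours for the arm of the mature strand. The dashed line marks 100 reads. Median shares are lower from 10000 reads up than under 100 reads in all 4 panels, by least in Sp9509, while 4 hairpins of at least 10000 reads in Lg7742a, Lj8627 and Sp9509 lie at 83.1% or more.

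The 2 tidiest hairpins of each accession, among those with at least 100 reads, included the leading 22 nt hairpin of Lg7742a and the chr19 hairpin of Sp9509 given above. The shares of the others, all of 21 nt, were 3.31% at chr6:8171261-8171373 of Lg7742a, 3.57% at chr19M:4919064-4919182 and 3.94% at chr19T:6216248-6216372 of Lj8627, 3.77% at chr6:6419458-6419573 of Sp9509, and 3.65% at chr18:5486708-5486815 and 3.66% at chr1:16286520-16286632 of Wa8730. These 21 nt mature strands all lay on the 5p arm, while that of the chr19 hairpin of Sp9509 lay on the 3p arm. Among all hairpins with at least 100 reads, 48.3% (Wa8730) to 59.0% (Lg7742a) were 5p. Over all hairpins the median share in neither was lower for 3p than 5p in Lg7742a (16.3% against 23.7%) and Lj8627 (12.0% against 17.7%). It was lower for 5p than 3p in Sp9509 (15.1% against 18.7%) and Wa8730 (29.4% against 39.1%).

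At the other end, some listed hairpins held most of their reads outside both products. With at least 100 reads these numbered 5 of 61 for Lg7742a, 10 of 114 for Lj8627, 6 of 70 for Sp9509 and 11 of 58 for Wa8730. The share was 8.20% for Lg7742a (3.55 to 17.8), 8.77% for Lj8627 (4.83 to 15.4), 8.57% for Sp9509 (3.99 to 17.5) and 19.0% for Wa8730 (10.9 to 30.9).

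Among hairpins of at least 10000 reads, 4 were of this kind. At chr3:7347625-7347766 of Sp9509, 47104 reads included 7 mature and 123 star reads, which leaves 99.7% in neither. At chr14:2881140-2881307 of Sp9509 the mature strand had 295 and the star strand 195 of 41834 reads. The 20 nt hairpin on chr12T of Lj8627 left 97.0% outside, and a 3p hairpin at chr17:3230284-3230409 of Lg7742a left 83.1%.

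All 4 carry a size call of 21 nt. In Sp9509 the hairpins with over 50% of reads outside the products held 12.9% of all reads in neither. Shallower examples were at chr13:19515349-19515485 of Lg7742a, with 3 mature and 28 star reads of 643, and at chr18M:7963488-7963616 of Lj8627, with 4 and 6 of 739. In Wa8730 the highest shares with at least 100 reads were 72.5% for its longest hairpin on chr19 and 72.1% at chr11:8816672-8816793, with 17 mature and 22 star reads of 140.

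The fifth comparison asked where hairpins stand close together. Hairpins under 10 kb from another numbered 4 of 83 for Lg7742a (4.82%, 1.89 to 11.7), 10 of 144 for Lj8627 (6.94%, 3.82 to 12.3), 11 of 81 for Sp9509 (13.6%, 7.76 to 22.7) and 22 of 117 for Wa8730 (18.8%, 12.8 to 26.8). They formed 2, 5, 5 and 11 groups, all of them pairs apart from a group of 3 in Sp9509. Gaps within groups ran up to 9352 bp, on chr18M of Lj8627, and the next wider gaps were 10160 bp in Sp9509, 10256 bp in Lj8627, 13990 bp in Wa8730 and 23313 bp in Lg7742a.

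Clusters of Sp9509 were deep and on the same strand. All 5 groups ran on a shared strand, as did 1 of 2 in Lg7742a and 4 of 5 in Lj8627. The Sp9509 groups held 33.4% of the hairpin reads of the accession, and the leading 22 nt hairpin on chr3 alone held 23.9%. The tandem hairpins of Sp9509 had a median of 47104 reads, compared with 4828.5 for hairpins on their own. Tandem medians were also the higher in Lg7742a (12280.5 against 369) and Lj8627 (5714.5 against 1222.5), while tandem hairpins of Wa8730 had only 14 to 55 reads. The group with most reads joined the leading 22 nt hairpin on chr3, with 1194077 reads, to the blurred hairpin 4303 bp away.

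The group of 3 lay on the minus strand of chr12 within 5671530 to 5677335. Its hairpins had 33860, 81018 and 37094 mature reads and 6589, 12001 and 78295 star reads, in the order of the chromosome. The first and second had 5p mature strands, the third a 3p mature strand, and in each of the 3 the 5p arm had more reads than the 3p arm. Other pairs lay on chr11, chr19 and chr5, with gaps of 2969, 960 and 1958 bp.

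A like pair occurred on chr12 of both Lemna accessions. In Lg7742a, hairpins at chr12:926241-926352 and chr12:928904-929033 had 11722 and 143493 mature reads, with a gap of 2551 bp. In Lj8627, pairs on chr12M had 5039 and 27082 mature reads over a gap of 2650 bp, and on chr12T 4917 and 42252 over 2406 bp. All 6 hairpins had a 21 nt mature strand on the 5p arm and lay on the plus strand, with the deeper hairpin downstream. The star reads on M and T were 227 and 226 for the upstream and 1358 and 1358 for the downstream hairpin, and the labels do not say how reads that match both places were assigned.

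These chr12 hairpins also shared a high share of reads outside the products. It was 39.7% and 39.2% for the pair of Lg7742a. On chr12M it was 37.2% and 39.7%, and on chr12T it was 37.5% and 32.3%. The group of 3 in Sp9509 had 16.5%, 15.0% and 18.7%.

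The tandem hairpins of Wa8730 differed from those of Sp9509 in strand and depth. All 11 groups were pairs on opposite strands, and in 11 of 11 the first hairpin lay on the plus and the second on the minus strand. They held 0.0164% of the hairpin reads of Wa8730. Gaps fell into narrow classes: 6 pairs were 2887 to 2918 bp apart, 4 were 6560 to 6920 bp apart and 1 was 3980 bp apart. In 8 of the 11 pairs no other small RNA locus was listed in between. Opposite strands also occurred in 1 of the 2 groups of Lg7742a and 1 of the 5 of Lj8627. There the minus strand hairpin came first.

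Of the 22 paired hairpins, 21 had an identical layout: a 21 nt mature strand on the 3p arm, a 21 nt star strand and 33 nt between them. In all, 39 hairpins of Wa8730, on 14 chromosomes, had this layout, and they held 0.0361% of its hairpin reads. They had a lowest, median and highest depth of 14, 35 and 146 reads, against 6, 905 and 1613220 reads for the other 78 hairpins. No other layout, defined by arm, product lengths and bases between them, was shared by more than 6 hairpins in Wa8730, 5 for Lg7742a, 7 for Lj8627 or 3 for Sp9509. The 39 were singled out after their values had been seen, and their sequences were not compared. In Lg7742a 3 hairpins had the same layout, with 1044 to 3900 reads, and 2 of them form its opposite-strand pair on chr2.

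The 39 hairpins had a median of 48.7% of reads in neither product, against 20.5% for the other 78. The median over all 59 Wa8730 hairpins under 100 reads was 47.9%. That group holds all but 2 of the 39, so it cannot show whether the value is particular to the layout. The 6 hairpins of the next most common layout, with 63 to 24209 reads, had a median of 63.4%. The summed mature to star ratio of the 39 was 5.19, against 57.4 for the others. The 39 included 2 with at least 100 reads, at chr4:16512985 with 146 reads and at chr6:17426120 with 135.

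Strand went with depth in this set. The 27 members on the plus strand had 25 to 146 reads with a median of 41, and the 12 on the minus strand had 14 to 30 with a median of 21. Within the 11 pairs the plus hairpin had more reads in 11 of 11: 34 to 55 with a median of 46 on the plus strand, and 14 to 27 with a median of 20 on the minus strand. The pair on chr15, from 8964616 to 8967752, had 55 and 20 reads, and the pair on chr1, from 14874255 to 14881083, had 52 and 23. Ranges of paired plus and minus hairpins did not overlap. The labels do not say how reads that match many places were assigned, and the part of that assignment in this difference was not tested.

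**Figure D5:**
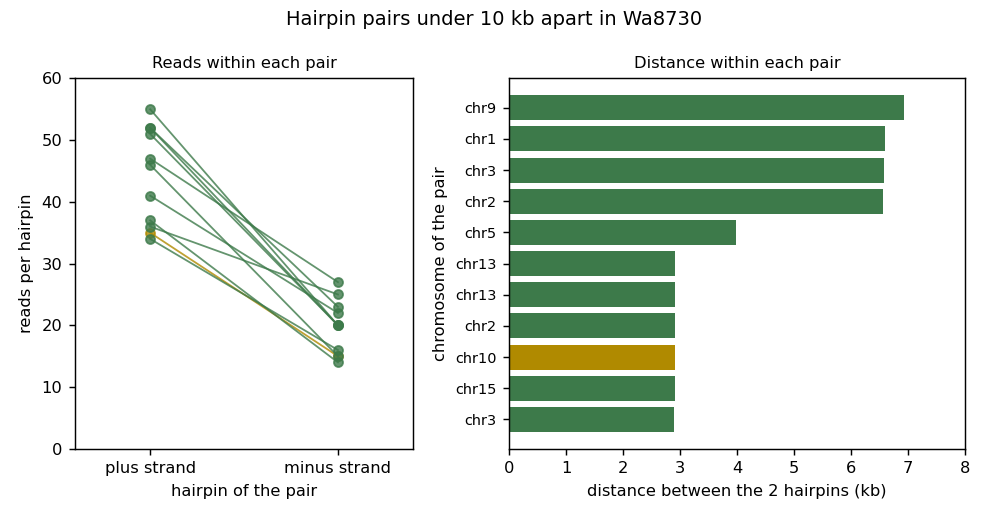
The 11 hairpin pairs of Wa8730 that lie under 10 kb apart. The left panel joins the reads of the plus strand and the minus strand hairpin of each pair, and the right panel gives the distance between them in kb. Green pairs have the shared layout in both hairpins, the ochre pair on chr10 in its plus strand hairpin. The plus strand hairpin has more reads in all 11 pairs, and 6 distances lie at 2887 to 2918 bp.

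Smaller sets of identical layout occurred in the Lemna accessions. In Lg7742a 5 hairpins on the minus strand of chr5, between 16560494 and 17117122, had 5p mature strands with 65 nt between the products and 183 to 287 reads. In Lj8627 4 hairpins with 3p mature strands and 32 nt between the products, 1 on chr2M and 3 on chr2T, had 6290 to 6919 reads. Depths within these 2 sets were close, and the part that the assignment of reads with several matches had in this was not tested. A shared layout did not generally go with like depth. The largest set of Lj8627, 7 hairpins with 5p mature strands and 38 nt between the products, ran from 8 to 40225 reads. In Lg7742a, 4 hairpins with 5p mature strands and 40 nt ran from 893 to 23717 reads, and 3 with 36 nt from 132 to 80935.

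Set beside other small RNA loci of like size, hairpins had a higher median depth and a larger median distance to neighbours. Reads may have entered the choice of hairpins, so the difference in depth is only a description of the list. The median hairpin had 519 reads (Lg7742a), 2285 (Lj8627), 7848 (Sp9509) and 85 (Wa8730), against 8, 7, 24 and 19 reads for 21 nt loci outside hairpins. The median distance to the nearest other locus of any class was 15447 bp for hairpins and 10364 bp for 21 nt loci for Lg7742a, 9806 and 5624 bp for Lj8627, 8870 and 1217 bp for Sp9509, and 5594 and 2970 bp for Wa8730. Another locus lay within 1 kb for 8.64% of hairpins (4.25 to 16.8) and 47.1% of 21 nt loci (44.4 to 49.8) in Sp9509, and for 13.3% (7.56 to 22.2) and 19.1% (17.7 to 20.5) in Lg7742a. These shares were 7.64% of hairpins and 26.1% of 21 nt loci in Lj8627, and 10.3% and 33.5% in Wa8730. Loci outside hairpins are listed with a median length of 421 to 426 bp, against 120 to 132 bp for hairpins. Distances run between listed ends, so the classes are not measured alike, and these differences were not tested.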

How the data were processed

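Small RNA was measured in 12 libraries, 3 replicates for each of 4 accessions. Reads were trimmed with fastp 0.20.1, per the submitters' processing notes, and small RNA loci were annotated with ShortStack, per the deposited lists. The values used are read counts per locus and per strand product, as the authors deposited them, with the 3 replicates pooled and no normalization. The aligner settings and the placement of reads with several matches are not stated in the labels or files. No per-sample column was left out (0 unused).

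Hairpin, mature and star lines were joined by parent name in Python 3.11.15 with pandas 2.3.3, numpy 2.4.6 and scipy 1.17.1. The arm is the side of the hairpin on which the mature strand lies, read along its strand. Reads in neither product are hairpin reads minus mature and star reads. Tandem hairpins lie under 10 kb apart on a chromosome. The computation was tested on simulated data. Intervals for shares are Wilson intervals at 95%, and no test between accessions was run, since each is a single pooled list.

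Per accession the text names the 5 hairpins with most reads, those with most reads at 20 and 22 nt, the longest and shortest, the extremes of reads in neither and of the mature to star ratio with at least 100 reads, and the leading tandem groups. Other hairpins named were chosen after their values were seen. The members and lists were chosen with earlier results of these data known. Alternatives were read minimums, weighting by reads, medians, other tandem distances, leaving out the leading hairpin, M or T chromosomes, and, chosen after seeing the data, the arm or product with more reads, Wa8730 without its shared layout, and long hairpins without the leading hairpins. Sequences, family names and gene annotation were not used here.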

Additional observations from a re-analysis of the deposited data

Results flagged for a closer look

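The balance of the arms had opposite signs between accessions. The log2 ratio of 5p to 3p hairpins was 0.53 (Lg7742a), 0.24 (Lj8627), 0.54 (Sp9509) and -0.94 (Wa8730). The intervals of the 5p share included 50% in Lg7742a, Lj8627 and Sp9509, and Wa8730 was at 51.3% 5p without its shared layout. By mature reads the log2 ratio of 5p to 3p was -1.43 (Lg7742a), -1.26 (Lj8627), 0.41 (Sp9509) and -2.07 (Wa8730). Without its leading hairpin Lg7742a had 82.4% of mature reads on the 5p arm. Each accession is a single pooled list, so these differences were not tested.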

How the results depend on the processing

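No paired analysis was possible because the lists pool the 3 replicates, and for the same reason no replicate could be left out. Of the values recomputed, 61 stayed within their counting interval and 45 did not. Weighted by mature reads, the 5p share was 27.1% in Lg7742a, 29.5% in Lj8627 and 19.2% in Wa8730, and the 21 nt share of Sp9509 was 71.8%. In Wa8730 the 5p share was 48.3% with at least 100 reads and 51.3% without the shared layout, where the median length was 124.5 and 123.5 bp. The mature to star ratio in Lg7742a, Lj8627, Sp9509 and Wa8730 was 11.8, 20.7, 11.6 and 5.33 as a median with 1 read added, 19.5, 35.1, 11.2 and 35.2 without the leading hairpin, and 64.3, 77.7, 31.2 and 113 with the product of more reads as mature. It was 70.8 on M and 28.9 on T chromosomes of Lj8627. Reads in neither were 21.1%, 15.5%, 15.6% and 36.7% as medians, and 16.0%, 8.51%, 14.2% and 6.41% without the leading hairpin. On M and T chromosomes they were 7.56% and 8.60%. Tandem hairpins were 16.0% in Lj8627 under 20 kb. In Wa8730 they were 12.0% under 5 kb, and 0% on the same strand, with at least 100 reads, or without the shared layout. The cause of these changes was not tested. In Lj8627 leaving out the leading hairpin, on chr7T, keeps the hairpin of near-equal reads on chr7M. A single star read was the whole star signal in 5 of 22, 13 of 30, 2 of 11 and 17 of 59 hairpins under 100 reads of Lg7742a, Lj8627, Sp9509 and Wa8730, and in 2 of 61, 9 of 114, 3 of 70 and 6 of 58 deeper ones.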
